A study of Homo sapiens with 9 samples.

Results

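The unfolded protein response and the amino acid response were examined in HuCCT1 cells through 34 genes, listed by symbol, of the 19775 genes that the arrays name. HuCCT1 is an established human cholangiocarcinoma cell line. Transcript levels were measured on 9 arrays: 4 of cells given an empty vector and 5 of cells given YAPS127A, a constitutively active form of the co-activator YAP1. All cells grew in RPMI-1640 medium with 10% serum, 2 mM glutamine, 1 mM pyruvate and 0.1 mM non-essential amino acids. The labels do not say whether the numbered samples of a group are separate cultures, so the p-values reflect the spread among these arrays alone, and that spread may be technical. In bulk samples, fewer cells of a kind and less RNA per cell cannot be told apart. All 34 genes had a probe set naming them alone, 69 probe sets in all, and the brightest probe set of a gene represents it unless another is named. Values are log2 signals, and each difference is the YAPS127A mean minus the empty vector mean with its standard error (SE).

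Proteins that enter the endoplasmic reticulum (ER) are folded there by chaperones, and unfolded protein is sensed by the membrane proteins IRE1 (gene ERN1), PERK (EIF2AK3) and ATF6. IRE1 splices the XBP1 transcript, ATF6 is cut to release a transcription factor, and both raise chaperone and degradation genes. PERK phosphorylates the initiation factor eIF2, which slows translation in general but favours that of the transcription factor ATF4. A second kinase, GCN2 (EIF2AK4), does the same when amino acids are short, so that ATF4 targets, among them enzymes and transporters of amino acids, are shared by both responses.

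The promoters of several members hold short elements known from these responses, and these stretches are shown as context for the genes described below. A RefSeq window from 250 bases before to 50 bases after the start (GRCh38.p14) was matched for 31 members. NUPR1, PSPH and SHMT2 had none. For the others the first listed window of the symbol was used, and any other start of a member was not searched. The ER stress response element was searched as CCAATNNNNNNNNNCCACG on both strands and was found at 5 of the 31 members and at 0.0769% of all 35116 windows. The shorter CCACG, which every match of that element contains, was found at 21 of 31 members and in 38.1% of all windows. The UPR element TGACGTGG was found at 1 member, HYOU1, and in 0.729% of windows. The C/EBP-ATF element, searched as TGATGNAA, was found at 5 members, including SLC3A2 after its start, and in 3.62% of windows. A match is a description of letters and not a binding site shown by these data. The matches of the 3 longer elements before the start are shown 5′ to 3′ on the strand of the gene with the matched element in capitals, which reads as the reverse complement where the match lies on the other strand. The first set holds the ER stress response element (for XBP1 at chr22:28800588-28800636, minus strand; HSPA5 at chr9:125241376-125241424, minus; HSP90B1 at chr12:103930201-103930354, plus; CRELD2 at chr22:49918539-49918587, plus; CALR at chr19:12938369-12938417, plus):
XBP1: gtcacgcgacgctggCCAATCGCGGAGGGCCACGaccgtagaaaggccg
HSPA5: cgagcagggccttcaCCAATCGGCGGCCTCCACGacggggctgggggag
HSP90B1: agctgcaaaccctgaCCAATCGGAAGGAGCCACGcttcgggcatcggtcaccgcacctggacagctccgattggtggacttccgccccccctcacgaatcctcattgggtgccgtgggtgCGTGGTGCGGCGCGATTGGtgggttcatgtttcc
CRELD2: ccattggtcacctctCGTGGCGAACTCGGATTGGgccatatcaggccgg
CALR: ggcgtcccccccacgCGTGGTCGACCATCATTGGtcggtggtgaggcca

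The UPR element, which overlaps a CCACG on the other strand, was matched at HYOU1 (chr11:119057371-119057408, minus strand):
HYOU1: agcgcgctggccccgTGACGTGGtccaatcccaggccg

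The last set holds the C/EBP-ATF element, to which ATF4 binds with a partner (ASNS at chr7:97872454-97872491, minus strand; CHAC1 at chr15:40953247-40953284, plus; HERPUD1 at chr16:56931951-56931988, plus; ATF3 at chr1:212565201-212565238, plus):
ASNS: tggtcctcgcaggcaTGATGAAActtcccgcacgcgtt
CHAC1: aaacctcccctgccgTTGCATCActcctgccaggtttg
HERPUD1: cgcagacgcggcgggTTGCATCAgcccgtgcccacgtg
ATF3: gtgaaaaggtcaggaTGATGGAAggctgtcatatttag

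Of the 8 genes of amino acid synthesis and transport, 5 were higher in cells with YAPS127A (PHGDH, PSPH, MTHFD2, ASNS and SLC7A5), while 9 of the 11 ER chaperones and folding factors did not pass. The clearest rises were those of PHGDH (2.34-fold) and SLC7A5 (2.22-fold), followed by NUPR1, ASNS and CHAC1 (1.57-fold, 1.56-fold and 1.53-fold). The deepest fall was that of the sensor gene ERN1 (1.73-fold lower). In limma, 14 of 34 members were higher, 3 were lower and 17 did not pass at an adjusted p of 0.05. Over all named genes 28.7% passed, 14.5% higher and 14.2% lower. Of the genes with a signal above the median of all probe sets (5.96), to which 33 of the members belong, 40.7% passed, 21.0% higher and 19.7% lower. Of the members' 69 probe sets 21 were higher and 6 lower, against 23.9% of all probe sets called in either direction. With the mean of a gene's probe sets 19 members passed, against 33.1% of all genes. The median difference of the members was +0.13, against 0.0048 over all genes. The groups did not overlap for 18 members (14 higher and 4 lower with YAPS127A), against 28.3% of all genes. A difference of at least 2-fold was seen in 2 members, against 3.13% of genes called at that size. The counts by probe set, averaged probe sets, overlap and 2-fold size were not set against genes above the median signal alone.

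**Figure D1:**
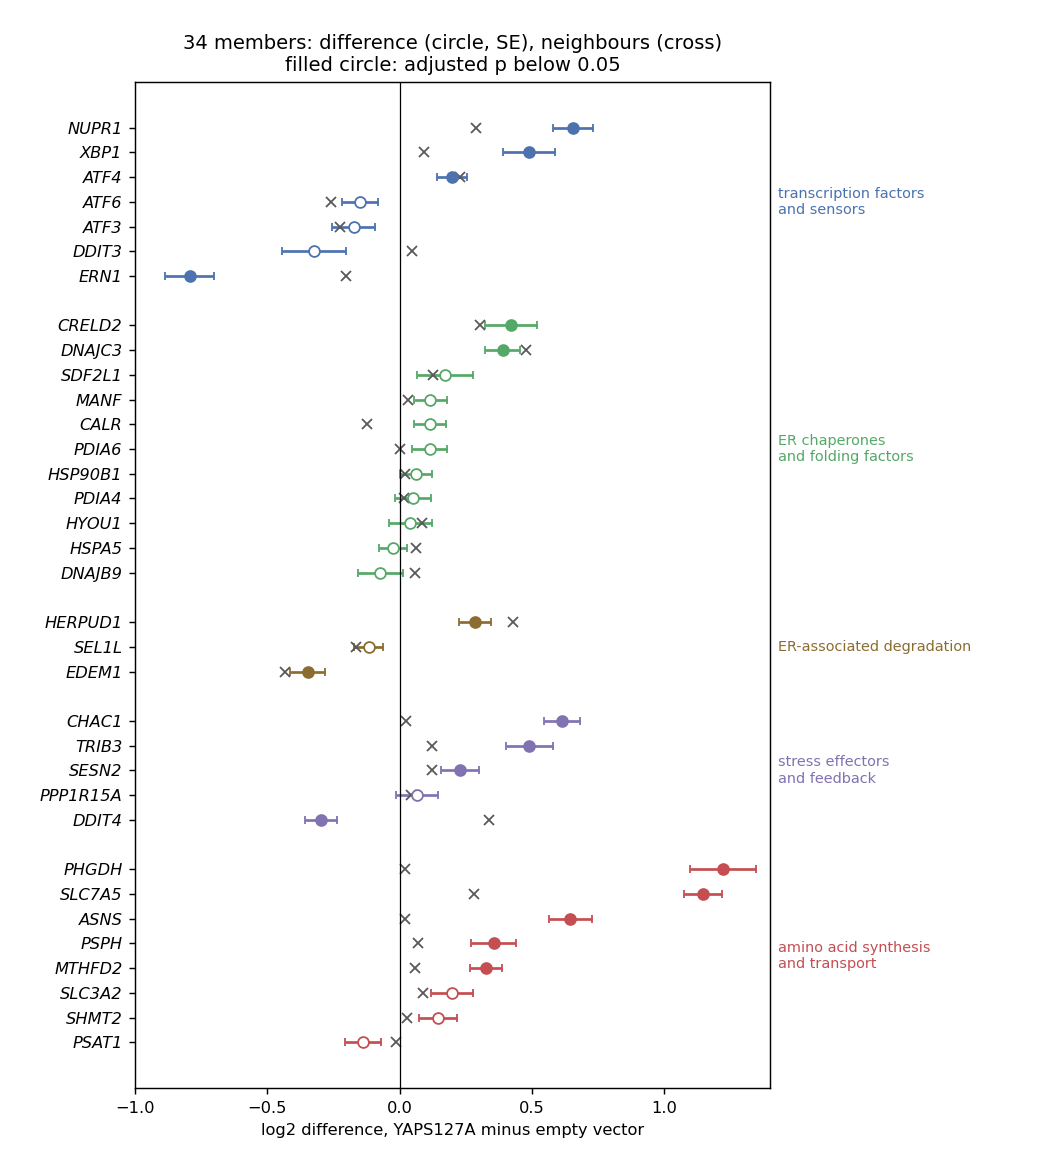
Log2 difference (YAPS127A minus empty vector, horizontal axis) of each of the 34 members, grouped by role. Circles are the fitted differences with SE, filled where the adjusted p is below 0.05, and crosses are the median difference of neighbouring genes in YAPS127A arrays. PHGDH (+1.22) and SLC7A5 (+1.15) lie farthest to the right and ERN1 (-0.79) farthest to the left, while the circles of most chaperones lie near 0.

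Genes that lie side by side moved together in several regions, and some members lie in such regions. For each member the median difference of up to 50 genes around it with a signal above the median was therefore taken on each array. These medians averaged more than 0.2 in size in YAPS127A arrays for 11 members, of which 9 were called and 4 of those kept their call once the neighbours' median was subtracted on every array. Of the other 23 members, 8 were called and 7 of those kept their call, and 2 more (DDIT3 and CALR), not called before, were called after it. After the subtraction 10 members were higher and 3 lower, 11 of them called in the same direction as before, against 29.6% of all genes called (14.8% higher and 14.8% lower). Of the members, 33 lie above the median signal, and the share of such genes called after subtraction was not taken. Before subtraction it was 40.7%. The subtraction takes the neighbours as the level a gene would have had, and the part of these shifts in each result was not tested.

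**Figure D2:**
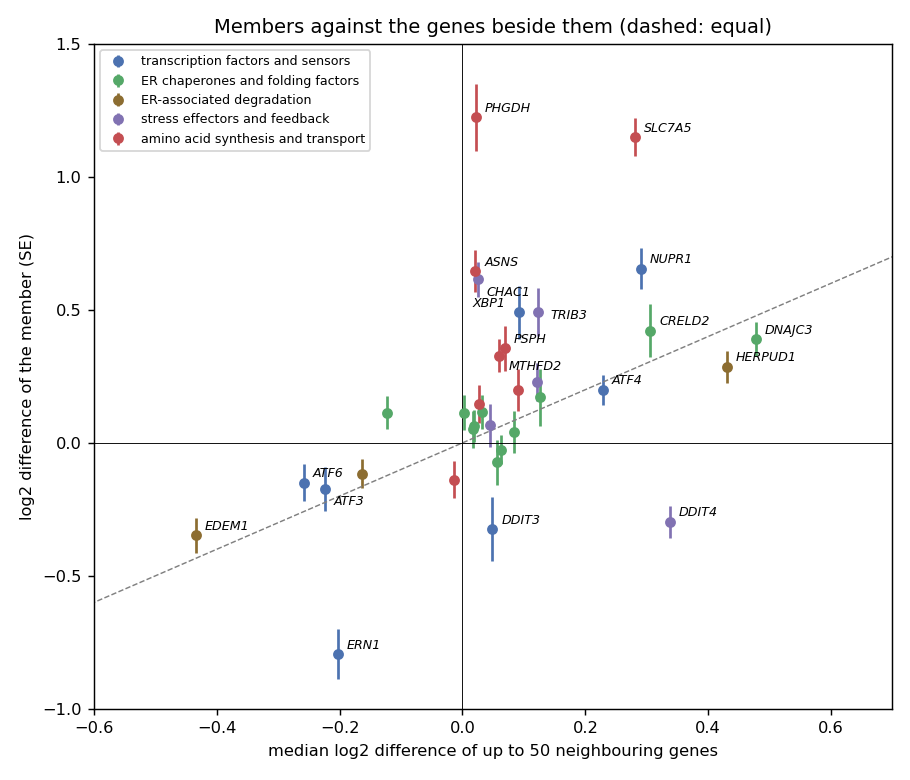
Log2 difference of each member with SE (vertical axis) against the mean over YAPS127A arrays of the median log2 difference of its neighbours (horizontal axis), coloured by role. On the dashed line both are equal: DNAJC3, HERPUD1, EDEM1 and ATF4 lie near it, PHGDH, ASNS and CHAC1 lie far above neighbours that hardly differed, and DDIT4 lies below 0 beside neighbours at +0.34.

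Among the 7 sensors and transcription factors, 3 rose, 1 fell and 3 did not pass. Called were thus 57.1%, against 28.7% of all genes and 40.7% of those above the median signal. ERN1, which encodes the kinase and ribonuclease IRE1, had log2 signals of 10.80, 10.71, 10.60 and 10.59 with the empty vector and 9.78, 10.07, 10.04, 9.66 and 9.85 with YAPS127A. All YAPS127A arrays lay below all empty vector arrays, and ERN1 fell by 0.79 on the log2 scale (SE 0.09, adjusted p = 6.82e-05). Its next probe set also fell (-0.57, adjusted p = 4.55e-05), and the third, at a mean signal of 5.55, differed by -0.09 (adjusted p = 0.711). The neighbours of ERN1 on chromosome 17 lay at -0.20 ± 0.04 (SD, n = 5), and the difference was -0.59 (adjusted p = 0.000514) after their median was subtracted.

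XBP1, which encodes the factor made active by IRE1 splicing, had signals of 9.26, 9.54, 9.73 and 9.38 with the empty vector and 10.05, 9.80, 9.96, 9.92 and 10.11 with YAPS127A. The groups did not overlap, and XBP1 rose by 0.49 (SE 0.10, adjusted p = 0.0033), moving the opposite way to ERN1. Whether this probe set separates the spliced from the unspliced transcript is stated neither in the labels nor in the files. The difference was +0.40 after subtraction of the neighbours' median (adjusted p = 0.0185). A second XBP1 probe set, at a mean signal of 5.05, differed by +0.0012 (adjusted p = 0.995).

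ATF6, the sensor that is itself a transcription factor, differed by -0.15 (SE 0.07, adjusted p = 0.153) at its brightest probe set. Its second probe set fell (-0.30, adjusted p = 0.0122) and the 2 others lay at -0.23 and -0.22 without passing. The 50 neighbours of ATF6 on chromosome 1 lay at -0.26 ± 0.04 (SD, n = 5), and subtracting their median put the brightest probe set at +0.11 (adjusted p = 0.318). The mean of the 4 probe sets passed as lower (-0.22, adjusted p = 0.0214).

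ATF4, the factor shared by both responses, was among the brightest members. Its signals were 13.72, 13.75, 13.68 and 13.70 with the empty vector and 13.92, 13.96, 13.86, 13.96 and 13.85 with YAPS127A. The groups did not overlap, but the rise was small at +0.20 (SE 0.06, adjusted p = 0.0227). Neighbours on chromosome 22 lay at +0.23 ± 0.03 (SD, n = 5), and with their median removed ATF4 differed by -0.03 (adjusted p = 0.741). The call was also lost without empty vector replicate 1 (+0.20, adjusted p = 0.0505), 3 (+0.19, adjusted p = 0.0522) or 4 (+0.20, adjusted p = 0.0573), without YAPS127A replicate 4 (+0.19, adjusted p = 0.0534) and with the replicate block (+0.21, adjusted p = 0.0722). ATF4 is controlled largely at translation, which these arrays do not read.

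DDIT3, which encodes the pro-apoptotic factor CHOP, and ATF3, a stress-induced factor, are ATF4 targets that did not pass. DDIT3 had signals of 9.37, 9.45, 9.21 and 9.28 with the empty vector and 9.19, 9.35, 8.87, 8.90 and 8.70 with YAPS127A. YAPS127A replicate 2 lay inside the empty vector range and the other YAPS127A arrays below it, replicate 1 only just, and DDIT3 differed by -0.32 (SE 0.12, adjusted p = 0.0775). DDIT3 passed after subtraction of its neighbours' median (-0.38, adjusted p = 0.0284) and without YAPS127A replicate 2 (-0.41, adjusted p = 0.0153). ATF3 differed by -0.17 (SE 0.08, adjusted p = 0.167), and its neighbours lay at -0.22.

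NUPR1, a small stress-induced co-regulator of transcription, gave the largest rise of this role. It had signals of 7.01, 7.15, 7.25 and 7.02 with the empty vector and 7.73, 7.81, 7.76, 7.89 and 7.62 with YAPS127A. The groups were clearly apart, and NUPR1 rose by 0.66 (SE 0.08, adjusted p = 6.63e-05). On chromosome 16 its neighbours lay at +0.29 ± 0.07 (SD, n = 5), and NUPR1 was still higher by 0.37 (adjusted p = 0.00482) with their median removed.

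**Figure D3:**
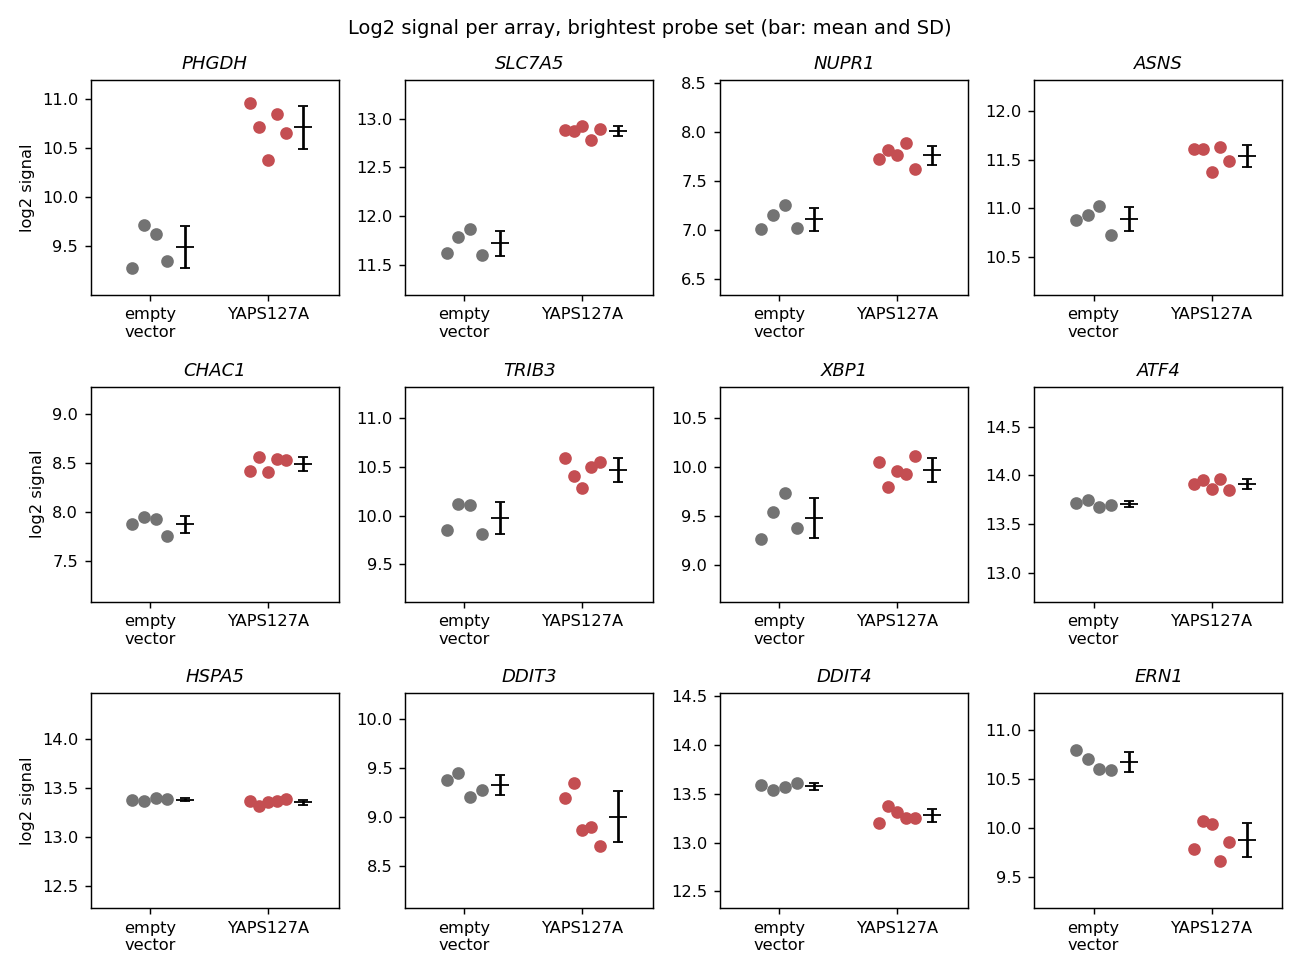
Log2 signal of 12 members on each array (points) with the mean and SD of the 4 empty vector and 5 YAPS127A arrays (bars), all panels spanning the same range on the log2 scale. PHGDH, SLC7A5, NUPR1, ASNS, CHAC1, TRIB3, XBP1 and ATF4 do not overlap and are higher with YAPS127A, DDIT4 and ERN1 do not overlap and are lower, and HSPA5 and DDIT3 overlap.

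Of the 11 ER chaperones and folding factors, 2 rose, none fell and 9 did not pass. This is 18.2% called, against 28.7% of all genes and 40.7% of those above the median signal, to which all 11 belong. HSPA5 encodes BiP, the main chaperone of the ER and a standard readout of the unfolded protein response. It had signals of 13.38, 13.36, 13.39 and 13.39 with the empty vector and 13.36, 13.31, 13.35, 13.36 and 13.38 with YAPS127A. The groups overlapped, and the difference was -0.03 (SE 0.05, adjusted p = 0.803; 95% interval -0.14 to 0.09). Its other probe set differed by +0.03 (adjusted p = 0.824).

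HSP90B1, which encodes GRP94, had signals of 12.14, 12.11, 12.02 and 12.04 with the empty vector and 12.16, 12.18, 12.18, 12.15 and 12.03 with YAPS127A, and the difference was +0.06 (SE 0.06, adjusted p = 0.533). The lectin chaperone gene CALR differed by +0.11 (SE 0.06, adjusted p = 0.218) and was called higher only when its 3 probe sets were averaged (+0.21, adjusted p = 0.0226) and after subtraction of the neighbours' median (+0.24, adjusted p = 0.0176). These genes and HSPA5 carry the ER stress response element printed above, as do XBP1 and CRELD2, which rose. The disulfide isomerase genes PDIA4 and PDIA6 differed by +0.05 and +0.11, MANF, whose product is secreted under ER stress, by +0.12, and HYOU1, an exchange factor and chaperone, by +0.04. SDF2L1, a partner of ER J-domain proteins, differed by +0.17 and the J-domain protein gene DNAJB9 by -0.07. The 95% intervals of these 9 genes ended between 0.09 (HSPA5) and 0.41 (SDF2L1) on the upper side and between -0.26 (DNAJB9) and -0.02 (CALR) on the lower side, on the log2 scale.

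The 2 chaperone genes that passed lie among neighbours that were also higher. DNAJC3 encodes P58IPK, a J-domain protein that also inhibits eIF2 kinases. It had signals of 12.44, 12.39, 12.32 and 12.40 with the empty vector and 12.70, 12.85, 12.86, 12.67 and 12.82 with YAPS127A, without overlap, and rose by 0.39 (SE 0.07, adjusted p = 0.00092). All 4 of its probe sets rose, by 0.39 to 0.72. The neighbours on chromosome 13 lay at +0.48 ± 0.06 (SD, n = 5), and after subtracting their median DNAJC3 lay at -0.09 (adjusted p = 0.366). CRELD2, a secreted ER stress protein, had signals of 9.50, 9.83, 9.73 and 9.56 with the empty vector and 10.30, 9.95, 9.91, 10.19 and 10.02 with YAPS127A and rose by 0.42 (SE 0.10, adjusted p = 0.00815). Its neighbours on chromosome 22 lay at +0.31 ± 0.09 (SD, n = 5), and subtracting their median left +0.12 (adjusted p = 0.308). With the replicate block the adjusted p of CRELD2 was 0.0552.

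Of the 3 genes of ER-associated degradation, which removes misfolded proteins from the ER, 1 rose, 1 fell and 1 did not pass. With so few genes this is 66.7% called, against 28.7% of all genes and 40.7% of those above the median signal. HERPUD1, a membrane component of the degradation complex, had signals of 11.70, 11.68, 11.72 and 11.73 with the empty vector and 11.98, 11.92, 11.92, 12.09 and 12.05 with YAPS127A and rose by 0.29 (SE 0.06, adjusted p = 0.00457). EDEM1, a lectin-like protein that directs glycoproteins to degradation, had signals of 11.17, 11.10, 10.96 and 11.05 with the empty vector and 10.62, 10.72, 10.71, 10.83 and 10.72 with YAPS127A and fell by 0.35 (SE 0.07, adjusted p = 0.00227). Neither gene overlapped between groups, and each moved the way of its neighbours, which lay at +0.43 ± 0.02 (SD, n = 5) for HERPUD1 on chromosome 16 and at -0.43 ± 0.07 (SD, n = 5) for EDEM1 on chromosome 3. With the neighbours' median removed HERPUD1 was at -0.14 (adjusted p = 0.153) and EDEM1 at +0.08 (adjusted p = 0.447). The rise of HERPUD1 was also lost when its probe sets were averaged (+0.14, adjusted p = 0.0932), of which the second is dim at 5.20 and differed by -0.01.

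SEL1L, the adaptor of the ubiquitin ligase of this pathway, did not overlap between groups but differed by only -0.12 (SE 0.05, adjusted p = 0.158). Its dimmest probe set, at a mean signal of 6.36, fell by 0.65 (adjusted p = 0.00648), and the 2 others lay at -0.21 and -0.19 without passing. The neighbours of SEL1L lay at -0.16, and subtracting their median left +0.05 (adjusted p = 0.611). It passed as lower when its probe sets were averaged (-0.29, adjusted p = 0.0255) and with trend and robust settings (-0.12, adjusted p = 0.0263).

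Among the 5 stress effectors and feedback genes, which act downstream of ATF4, 3 rose, 1 fell and 1 did not pass. Called were thus 80%, against 28.7% of all genes and 40.7% of those above the median signal. CHAC1, an enzyme that degrades glutathione, had signals of 7.88, 7.95, 7.92 and 7.75 with the empty vector and 8.41, 8.56, 8.41, 8.54 and 8.53 with YAPS127A. The groups did not overlap, and CHAC1 rose by 0.61 (SE 0.07, adjusted p = 3.93e-05). Its neighbours on chromosome 15 lay at +0.03, and it was higher by 0.59 after their median was subtracted (adjusted p = 5.17e-05). TRIB3, a pseudokinase that dampens ATF4 and CHOP, had signals of 9.86, 10.12, 10.11 and 9.82 with the empty vector and 10.59, 10.41, 10.28, 10.49 and 10.55 with YAPS127A. TRIB3 rose by 0.49 (SE 0.09, adjusted p = 0.00178) without overlap and was higher by 0.37 (adjusted p = 0.0072) with the neighbours' median removed. Its second probe set differed by +0.26 (adjusted p = 0.164).

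DDIT4, which encodes REDD1, an inhibitor of mTORC1, moved the other way. Its signals were 13.58, 13.53, 13.57 and 13.61 with the empty vector and 13.20, 13.38, 13.31, 13.25 and 13.25 with YAPS127A. DDIT4 fell by 0.30 (SE 0.06, adjusted p = 0.00317) without overlap, although its neighbours on chromosome 10 lay at +0.34 ± 0.03 (SD, n = 5). With their median removed the fall was -0.64 (adjusted p = 1.55e-05).

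SESN2, a stress protein that binds leucine and restrains mTORC1, had signals of 7.97, 8.03, 8.01 and 7.95 with the empty vector and 8.26, 8.38, 8.09, 8.27 and 8.09 with YAPS127A. SESN2 rose by 0.23 (SE 0.07, adjusted p = 0.04) and its other probe set by 0.29 (adjusted p = 0.0381), both close to the threshold. The call was lost without any one of the 4 empty vector arrays or without YAPS127A replicate 1, 2 or 4 (+0.19 to +0.24), with the replicate block (+0.26, adjusted p = 0.0586), with the actin covariate (+0.23, adjusted p = 0.0561) and after subtraction of the neighbours' median (+0.11, adjusted p = 0.259). PPP1R15A, which encodes the stress-induced phosphatase subunit GADD34, differed by +0.07 (SE 0.08, adjusted p = 0.635) and by +0.11 (adjusted p = 0.46) at its other probe set.

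Of the 8 genes of amino acid synthesis and transport, 5 rose, none fell and 3 did not pass, and the same 5 passed with the neighbours' median removed. A share of 62.5% was called, against 28.7% of all genes and 40.7% of those above the median signal. The median difference was +0.34, or +0.29 with that median removed. PHGDH encodes the first enzyme of serine synthesis from a glycolytic intermediate. It had signals of 9.27, 9.72, 9.63 and 9.34 with the empty vector and 10.97, 10.71, 10.39, 10.85 and 10.65 with YAPS127A. The lowest YAPS127A array exceeded the highest empty vector array by a wide margin, and PHGDH rose by 1.22 (SE 0.13, adjusted p = 2.63e-05). Its neighbours on chromosome 1 lay at +0.02, and the rise was 1.21 (adjusted p = 8.37e-05) with their median removed.

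PSPH, the last enzyme of the same route, rose at all 3 of its probe sets. The brightest had signals of 11.23, 11.16, 11.48 and 11.21 with the empty vector and 11.55, 11.56, 11.79, 11.54 and 11.69 with YAPS127A and rose by 0.36 (SE 0.08, adjusted p = 0.00873). The 2 dimmer probe sets, at mean signals of 8.49 and 6.57, rose by 0.52 (adjusted p = 0.00566) and 1.00 (adjusted p = 2e-05). PSAT1, the aminotransferase between PHGDH and PSPH, was dim on every array: its brighter probe set lay between 4.64 and 5.00 and its other between 2.09 and 2.47, against a lower quartile of 4.24 to 4.27 over all probe sets of an array. It was the only member below the median of all probe sets, and its difference of -0.14 (SE 0.07, adjusted p = 0.187) was measured near background.

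Of the mitochondrial one-carbon enzymes among the members, MTHFD2 rose and SHMT2 did not pass. MTHFD2 had signals of 11.96, 11.90, 12.03 and 12.00 with the empty vector and 12.25, 12.31, 12.36, 12.22 and 12.38 with YAPS127A and rose by 0.33 (SE 0.06, adjusted p = 0.00206). Its second probe set rose by 0.49 (adjusted p = 0.0059). SHMT2, which splits serine into glycine and a one-carbon unit, differed by +0.15 (SE 0.07, adjusted p = 0.175), and its 2 other probe sets by +0.24 and +0.08.

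ASNS, the asparagine synthetase whose promoter carries the C/EBP-ATF element printed above, had signals of 10.88, 10.93, 11.03 and 10.73 with the empty vector and 11.61, 11.61, 11.37, 11.63 and 11.48 with YAPS127A. The groups did not overlap, and ASNS rose by 0.65 (SE 0.08, adjusted p = 0.00011). Its neighbours lay at +0.02, and the rise was 0.63 (adjusted p = 0.000177) with their median removed. Averaging its probe sets gave +0.37 (adjusted p = 0.00311), because the second lies at 3.81, below the lower quartile of the arrays, and differed by +0.09.

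SLC7A5 encodes LAT1, the carrier of large neutral amino acids, which works as a dimer with the heavy chain 4F2hc encoded by SLC3A2. SLC7A5 had signals of 11.63, 11.78, 11.87 and 11.60 with the empty vector and 12.88, 12.87, 12.92, 12.78 and 12.90 with YAPS127A. It had the lowest adjusted p of all members (+1.15, SE 0.07, adjusted p = 4.82e-07). Neighbours on chromosome 16 lay at +0.28 ± 0.06 (SD, n = 5), and with their median removed SLC7A5 was higher by 0.87 (adjusted p = 1.16e-05). SLC3A2 had signals of 9.86, 9.99, 10.04 and 9.83 with the empty vector and 10.17, 10.28, 9.94, 10.17 and 10.08 with YAPS127A. It differed by +0.20 (SE 0.08, adjusted p = 0.102), and without YAPS127A replicate 3, the only array of its group inside the empty vector range, it passed (+0.24, adjusted p = 0.0373).

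Within the YAPS127A group, replicate 3 was lowest for 4 of the 5 stress effectors (TRIB3, CHAC1, PPP1R15A and SESN2) and for PHGDH, ASNS and SLC3A2, and highest for PSPH, SLC7A5 and SHMT2. The median over the 5 effectors, relative to the empty vector mean, was 0.27, 0.39, 0.10, 0.28 and 0.10 in YAPS127A replicates 1 to 5. The median over the 11 chaperones was 0.08, 0.10, 0.10, 0.10 and 0.07 in the same arrays. Replicate 2 was thus the highest and replicates 3 and 5 the lowest for the effectors, while the chaperone medians of the 5 arrays lay close together.

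Other genes of these pathways were read from 10 lists, in which 146 of 161 listed genes had a probe set of their own. Of these 146 genes 33 rose, 27 fell and 86 did not pass, with a median of +0.04. The share called was 41.1%, against 28.7% of all genes and 40.7% of those above the median signal. The counts of each single list below stand beside the same shares. After subtraction of the neighbours' median 24 of the 146 were higher and 22 lower, against 14.8% of all genes higher and 14.8% lower in that setting. Among sensors, proteases and related factors, 4 of 10 rose and 1 fell. CREB3L1, an ER membrane-bound transcription factor, fell by 1.13 (SE 0.07, adjusted p = 5.46e-07), and its relative CREB3L2 rose by 0.41 (adjusted p = 0.000495). The protease genes MBTPS1 and MBTPS2, whose products cut ATF6, rose by 0.37 (adjusted p = 0.00135) and 0.31 (adjusted p = 0.0103). MBTPS2 did not pass when its probe sets were averaged (+0.14, adjusted p = 0.0559). The neighbours of MBTPS1 on chromosome 16 lay at +0.39, and subtracting their median left -0.01 (adjusted p = 0.916). EIF2AK3, which encodes PERK and was named after its value was seen, rose by 0.26 (adjusted p = 0.038) and did not pass when its probe sets were averaged (+0.21, adjusted p = 0.0534). Only 1 of 14 genes of the eIF2 kinases, eIF2 and eIF2B rose and 2 fell: the kinase gene EIF2AK1 by +0.19 (adjusted p = 0.0278), the phosphatase subunit gene PPP1R15B by -0.31 (adjusted p = 0.00737) and EIF2S1, the phosphorylated subunit of eIF2, by -0.21 (adjusted p = 0.0177). None of these 3 passed with the neighbours' median removed.

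Further ER genes also moved both ways. Of 16 other folding factors 4 rose and 1 fell. DNAJC1, an ER J-domain gene, rose by 0.48 (adjusted p = 0.000178) beside neighbours at +0.61, the prolyl isomerase gene FKBP14 by 0.24 and the calcium-binding CALU by 0.21. The oxidase gene ERO1A fell (-0.28, adjusted p = 0.0037). With the neighbours' median removed these 4 did not pass, and CALU did not with averaged probe sets either (+0.19, adjusted p = 0.0538). Of 13 other degradation genes 2 rose and 1 fell: UBE2J1, a ubiquitin-conjugating enzyme, rose by 0.56 (adjusted p = 3.7e-05) and DERL3 by 0.25 (adjusted p = 0.0351), and EDEM3, a relative of EDEM1, fell (-0.62, adjusted p = 0.000575). DERL3 passed neither after subtraction of the neighbours' median (+0.14, adjusted p = 0.217) nor with averaged probe sets (+0.17, adjusted p = 0.0953). After that subtraction EDEM3, beside neighbours at -0.28, was still called at -0.34 (adjusted p = 0.0182). Of 16 translocation and export genes 3 rose and 2 fell, with SSR3 at +0.41, SEC23B at +0.39, SEC63 at -0.43 and SSR2 at -0.25. SEC63 and SSR2 did not pass with the neighbours' median removed. Of 12 cytosolic and mitochondrial heat shock genes none rose and 4 fell: DNAJB1 (-0.45), HSPB1 (-0.41), the heat shock factor HSF1 (-0.40) and HSP90AA1 (-0.16). HSF1 and HSP90AA1 did not pass with the neighbours' median removed.

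Within the 10 lists the amino acid genes GLDC, CTH and SLC1A4 differed most. Of 14 other transporters 5 rose and 2 fell. SLC1A4, a carrier of alanine, serine and cysteine, had averages of 7.73 ± 0.19 (SD, n = 4) in empty vector arrays and 9.34 in YAPS127A arrays (n = 5) and rose by 1.61 (SE 0.09, adjusted p = 3.17e-07), or 3.04-fold. The arginine carrier gene SLC7A1 rose by 0.54, SLC1A5, a carrier of glutamine, by 0.46 and SLC7A11, the cystine carrier, by 0.38, and all 4 passed with the neighbours' median removed. SLC7A1, beside neighbours at +0.32, was then at +0.23 (adjusted p = 0.0217). Averaging the probe sets of SLC1A4 gave +1.04. Of 17 other amino acid and one-carbon enzymes 8 rose and 5 fell, and 5 were higher and 5 lower after subtraction of the neighbours' median, when GOT1, GOT2 and ALDH18A1 lost their calls. CTH, which makes cysteine from cystathionine, rose by 1.80 (SE 0.09, adjusted p = 5.66e-08), or 3.47-fold, beside neighbours at +0.45, and ALDH1L2, a mitochondrial folate enzyme, by 1.42 (adjusted p = 3.05e-06). GLDC, of the glycine cleavage system, fell by 1.93 (adjusted p = 5.83e-07), and GLUL, the glutamine synthetase, by 1.32 (adjusted p = 7.43e-08). All 4 passed in the same direction with the neighbours' median removed, CTH at +1.35. With averaged probe sets ALDH1L2 was at +0.63 and GLUL at -0.77, both still called.

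The aminoacyl-tRNA synthetases, of which several are ATF4 targets, rose in 4 and fell in 3 of 17. SARS1, which charges serine, rose by 0.64 (adjusted p = 4.77e-05), AARS1 by 0.57 (adjusted p = 0.000667) and CARS1 by 0.31 (adjusted p = 0.00312), while LARS1 fell (-0.46, adjusted p = 9.22e-05). The neighbours of AARS1 on chromosome 16 lay at +0.35, and after subtraction of their median it did not pass (+0.22, adjusted p = 0.0938). Those of SARS1 on chromosome 1 lay at +0.30, and SARS1 was at +0.35 (adjusted p = 0.00511) with their median removed. Of 17 other factors and effectors of the ATF4 response 2 rose and 6 fell. The repressor gene JDP2 rose by 0.60 (adjusted p = 9.4e-05), or by 0.38 with averaged probe sets. TXNIP, an inhibitor of glucose uptake, fell (-0.78, adjusted p = 2.22e-06), as did DDIT4L, a relative of DDIT4 (-1.30, adjusted p = 1.08e-05), and SESN1, a relative of SESN2 (-0.68, adjusted p = 0.00096). These 4 passed in the same direction with the neighbours' median removed. SESN1, beside neighbours at -0.33, was then at -0.34 (adjusted p = 0.0259).

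**Figure D4:**
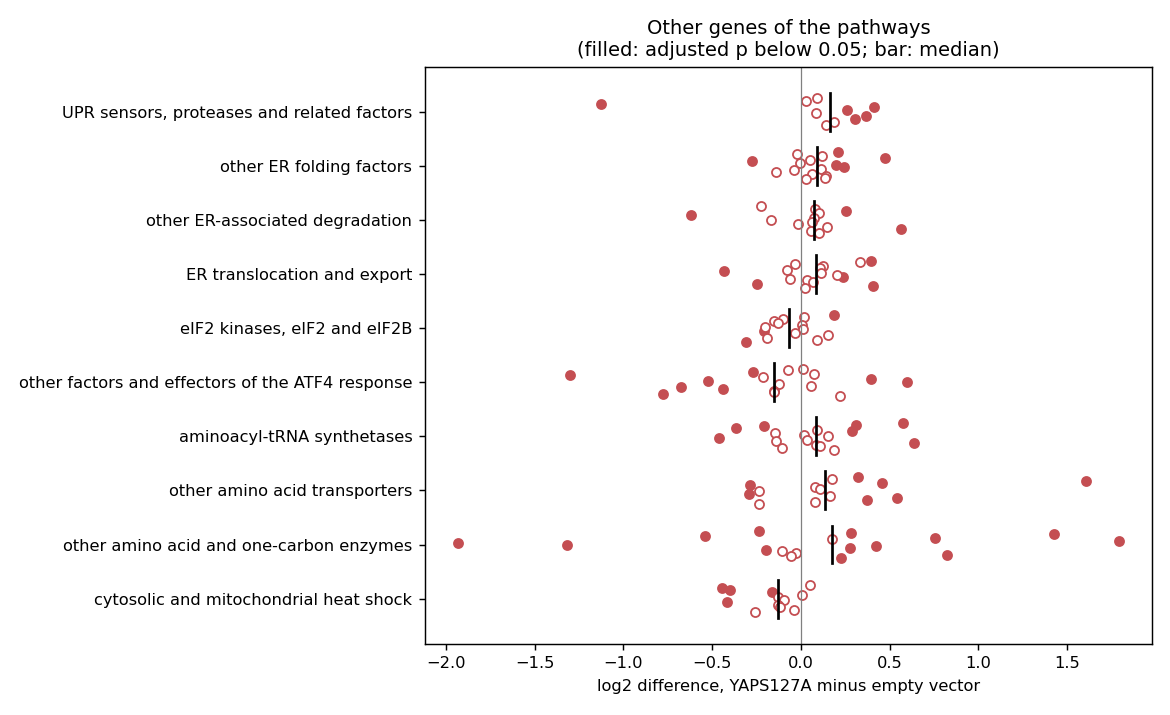
Log2 differences (YAPS127A minus empty vector) of the genes in 10 lists of the same pathways, 1 point per gene, filled where the adjusted p is below 0.05, with the median of each list as a bar. Medians lie between -0.15 and +0.17, and the largest differences in both directions are those of amino acid and one-carbon enzymes, such as CTH (+1.80) and GLDC (-1.93).

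All 7 epithelial markers of bile duct cells were bright, with group means between 12.84 (SOX9) and 14.34 (KRT18). KRT8 (+0.30, adjusted p = 0.00741) and CDH1 (+0.24, adjusted p = 0.00882) rose, SOX9 fell (-0.25, adjusted p = 0.0182), and KRT7, KRT18, KRT19 and EPCAM did not pass. With the neighbours' median removed KRT8 still passed (+0.33, adjusted p = 0.00503). CDH1, beside neighbours at +0.39, then did not (-0.15, adjusted p = 0.152), nor did SOX9 (-0.13, adjusted p = 0.244). Of 16 hepatocyte, fibroblast, endothelial and leukocyte markers with a probe set, 11 lay below the median signal in both groups, among them ALB, DCN and PTPRC. The 5 others were COL1A1 (8.21 with the empty vector and 7.51 with YAPS127A), LUM (7.27 and 8.72), LYZ (7.42 and 5.18), APOA1 (6.59 and 6.65) and PECAM1 (5.98 and 5.98). Of the 16, LUM rose (+1.45) and COL1A1 (-0.70) and LYZ (-2.25) fell, and the part of all these markers in the results was not tested. The gap between the 3′ and 5′ actin control probe sets, a sign of RNA integrity, averaged 1.25 ± 0.31 (SD, n = 4) in empty vector arrays and 1.09 ± 0.28 (SD, n = 5) in YAPS127A arrays (2-sided exact permutation test, p = 0.381), and was largest in empty vector replicate 3 (1.69) and YAPS127A replicate 1 (1.58). Without both of these arrays, ATF4 (adjusted p = 0.0758) and SESN2 (adjusted p = 0.109) lost their calls and the other 15 called members kept theirs.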

How the data were processed

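The values the authors deposited were read as log2 signals of probe sets from their range, since no header states the unit. Neither labels nor headers state the normalization, summarisation or genome build. Array medians lay between 5.95 and 5.97, so no further scaling was applied. Total RNA was amplified to biotin-labelled cDNA, per the labels' protocols. There were 0 columns of other samples.

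Tests covered 54613 probe sets, without 62 controls. The platform's annotation gave 1 gene for 41091, several for 1801 (used for no gene) and none for 11721. Symbols were updated by gene ID through RefSeq (GRCh38.p14) for 41037. Differences between vectors came from lmFit and eBayes of limma 3.58.1 under R 4.3.3, with no covariate and Benjamini-Hochberg adjustment over all probe sets. Fits had 11.4 total degrees of freedom. Called, rose, fell and passed mean an adjusted p below 0.05. Figures used matplotlib 3.10.9 in Python 3.11.15.

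The members, lists and tests were chosen with earlier results of these data known. All members are named, and of each other list up to 4 genes that passed, with the lowest p-values. EIF2AK3, GOT1, GOT2 and ALDH18A1 were named in addition, outside this rule. Neighbours were up to 25 genes on each side in RefSeq order. In simulated arrays of the same comparison (54613 probe sets, 50 changed per size), the test recovered 4% of changes of 0.25 (log2), 50% of those of 0.5, 96% of those of 1 and 100% of those of 2, and made 10 false calls. Far fewer probe sets were changed there than the 23.9% called in the data, which makes the adjustment stricter. The recovered shares therefore do not measure how many changes of a size were found here. The alternatives were quantile normalization, median centring, a filter on dim probe sets, trended robust eBayes, weighted arrays, a replicate block (without YAPS127A replicate 5, which has no counterpart), omission of each array in turn, the mean of a gene's probe sets, the neighbours' median removed, the actin gap as a covariate and omission of the 2 arrays where it was widest. C-terminal ER retention signals were not analysed here.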

Additional observations from a re-analysis of the deposited data

Results flagged for a closer look

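In 3 of the 68 groups of arrays tested (34 members in 2 groups), 1 array lay far from the others of its group, and chance flags about 1 in 20 groups. None of these genes passed the comparison. ATF3 had a log2 signal of 8.25 in YAPS127A replicate 3, with the nearest other YAPS127A array at 8.45. HSP90B1 had a log2 signal of 12.03 in YAPS127A replicate 5, with the nearest at 12.15. SDF2L1 had a log2 signal of 8.92 in YAPS127A replicate 1, with the nearest at 8.53, and its difference was +0.08 without that array.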

How the results depend on the processing

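The count of called members was 17 and lay between 13 and 19 over 19 alternatives, and between 15 and 18 without each of the 9 arrays in turn; the count over all genes (5676) lay between 4861 and 5464 without each array. Of the 17 called members 11 (XBP1, ERN1, NUPR1, TRIB3, CHAC1, DDIT4, ASNS, PHGDH, PSPH, MTHFD2 and SLC7A5) kept call and direction in all 19, and 15 did so without each array, the exceptions being ATF4 and SESN2. Arrays with the same replicate number did not deviate together (correlations of -0.46, -0.02, -0.05 and 0.03), so the numbers were not taken as pairs. With the replicate block, which also leaves out YAPS127A replicate 5, 14 members and 4459 genes were called, and ATF4, CRELD2 and SESN2 lost their calls. Without that replicate alone 17 members were called. With the neighbours' median removed the sign turned for ATF4 (-0.0317), ATF6 (+0.11), ATF3 (+0.0480), DNAJC3 (-0.0890), HYOU1 (-0.0414), HERPUD1 (-0.14), EDEM1 (+0.0816) and SEL1L (+0.0518), none of them called then. Averaging its probe sets put HSPA5 at +0.0028, and HYOU1 ranged from -0.0030 (without YAPS127A replicate 4) to +0.0835 (without YAPS127A replicate 3). Called genes fell from 5 to 2 among other ER folding factors and from 3 to 1 among the eIF2 genes with the neighbours' median removed, and rose to 7 among the eIF2 genes with the mean of probe sets; for none of these was the cause tested, the subtraction apart. Limiting promoter windows to the bases before the start left the element counts within 1.5 times. Dim probe sets such as those of PSAT1 limit what can be measured.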
